A study of Rattus norvegicus with 6 samples.

Results

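Growth factors are secreted proteins that tell neighbouring cells to divide, survive or change shape, and 5 of them with known roles in tissue repair were followed here: Fgf2, Vegfa, Tgfb1, Bdnf and Igf1. They are 5 of the 34510 rows of a read count table, taken by a list of gene identifiers, which was drawn up with earlier results of these data known. RNA was sequenced from the hypothalamic median eminence of S-D rats, in 3 samples collected 1 day after a surgery labelled PEL and in 3 samples labelled Control. The labels do not spell out PEL, do not say whether controls had a sham operation, and give no age, sex, date or batch. The title of the series places the samples in work on neurogenesis, rebuilding of the tissue and recovery of body fluid balance.

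The median eminence is the floor of the hypothalamus where axons from hypothalamic neurons end on leaky capillaries and release hormones toward the pituitary. Basic fibroblast growth factor, the product of Fgf2, and vascular endothelial growth factor A, the product of Vegfa, drive growth of endothelial cells, and Fgf2 also acts as a mitogen of astrocytes and neural progenitors. Transforming growth factor beta 1, from Tgfb1, is released in a latent form by glia, macrophages and platelets and drives matrix production and scar formation. Brain-derived neurotrophic factor, from Bdnf, and insulin-like growth factor 1, from Igf1, support the survival of neurons and the growth of axons.

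At 1 day after PEL, Fgf2 and Tgfb1 rose, and the values of Vegfa, Bdnf and Igf1 did not pass the test. Fgf2 was 3.38-fold higher after PEL (95% interval 2.47 to 4.63) and Tgfb1 was 2.09-fold higher (1.56 to 2.82). The intervals of the other 3 genes include no change. They ran from 0.985-fold to 1.47-fold for Vegfa, from 0.973-fold to 1.60-fold for Bdnf and from 0.524-fold to 1.05-fold for Igf1. All 5 genes passed the filter on low counts and were tested among 17125 rows with edgeR's quasi-likelihood test. Of the 5, 2 were called higher and 0 lower with a Benjamini-Hochberg adjusted p below 0.05, and the same 2 had an unadjusted p under 0.05. Over all tested rows 5.43% were called, 4.44% higher and 0.993% lower after PEL. In 3 of the 5 genes the values of the groups did not overlap, where this held for 30.0% of all tested rows.

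The promoters of the 2 genes that rose are shown with that of Vegfa, the most deeply read of the 5 and not called, so that a reader can set them side by side. Each is the 250 bases before the first listed start of the gene, 5′ to 3′, from RefSeq on GRCr8. Capitals mark matches, on either strand, to ACGTG, the core of the hypoxia response element, to TGACG, the short form of the cyclic AMP response element, to TGANTCA, the AP-1 site, and to GGGCGG, the GC box. The motifs ACGTG and TGACG can overlap each other, which they do not in these windows.
Fgf2, chr2:122164204-122164453, + strand: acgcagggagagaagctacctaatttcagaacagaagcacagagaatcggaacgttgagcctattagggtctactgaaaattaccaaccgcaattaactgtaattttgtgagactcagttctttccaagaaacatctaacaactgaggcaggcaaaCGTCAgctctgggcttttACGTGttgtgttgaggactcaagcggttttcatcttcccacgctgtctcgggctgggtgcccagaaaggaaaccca
Tgfb1, chr1:90324062-90324311, + strand: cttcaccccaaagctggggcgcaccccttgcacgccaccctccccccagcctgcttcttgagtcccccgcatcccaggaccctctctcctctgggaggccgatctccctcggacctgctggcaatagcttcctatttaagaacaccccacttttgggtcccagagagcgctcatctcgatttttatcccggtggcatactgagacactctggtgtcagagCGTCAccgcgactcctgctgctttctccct
Vegfa, chr9:22452604-22452853, + strand: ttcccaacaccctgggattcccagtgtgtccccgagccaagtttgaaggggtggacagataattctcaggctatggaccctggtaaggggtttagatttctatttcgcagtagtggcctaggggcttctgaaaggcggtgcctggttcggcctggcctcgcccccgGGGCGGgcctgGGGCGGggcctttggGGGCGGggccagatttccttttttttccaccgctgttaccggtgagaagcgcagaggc
The Fgf2 window held 1 match to TGACG, which began 94 bases before the start, and 1 match to ACGTG, 76 bases before it. The Tgfb1 window held 1 match to TGACG, 30 bases before the start. The Vegfa window held 3 GC boxes, which began 84, 73 and 58 bases before the start, and no match to the other motifs. No AP-1 site was in the 3 windows. Of the 8 windows of these genes that are not printed, those of Igf1 and of the second Vegfa start held no match, and 3 of the 6 Bdnf windows held at least 1. Bdnf, which was not called, had ACGTG before starts 1 and 4 and TGACG before start 4. Its start 3 had an AP-1 site and GC boxes. Over the 33465 promoter windows of this length in the RefSeq table, 18.2% held TGACG, 16.6% ACGTG, 6.34% TGANTCA and 30.5% GGGCGG. A match is a description of the letters, and the absence of one says only that these letters are not in the window.

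The libraries held 16055170 to 17144108 assigned reads after PEL and 13756297 to 16746441 in controls. The 6 libraries separated by group on the first principal component of log2(CPM + 1), where CPM is read counts scaled by TMM to a common library size, with PEL replicate 3 nearest to the controls at 4.65, against 25.7 and 44.1 for PEL replicates 1 and 2 and -26.2 to -23.5 for controls. No library pair within a group agreed within sampling noise. Whether each sample is a separate animal is not in the labels, so the spread behind the p-values may be technical in part. The count table carries no gene symbols, so the labelled tissue was not checked against marker genes, and receptors, binding proteins and target genes of the 5 factors were not analysed here. The counts have no transcript lengths beside them, so levels are compared between groups within a gene and not between genes.

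Of the 2 factors for vessel growth, Fgf2 (ENSRNOG00000017392) was the gene of the 5 that moved furthest. It had 172, 256 and 253 reads in PEL replicates 1, 2 and 3, against 50, 65 and 77 reads in control replicates 1, 2 and 3. Scaled, these are 10.7, 15.8 and 14.9 CPM after PEL, against 3.62, 4.05 and 4.54 CPM in controls. Every PEL library lay above every control library, and the lowest PEL value was over 2-fold the highest control value. Fgf2 averaged 13.8 ± 2.72 CPM after PEL and 4.07 ± 0.461 CPM in controls (SD, n = 3 each). Its log2 fold change was 1.76 with an SE of 0.20 (edgeR adjusted p = 0.00393). Only 1.64% of tested rows had a log2 fold change as high, and 202 of the 760 rows called higher had a larger one. Tissue was measured in bulk, so here and below more cells of a type and more RNA per cell cannot be told apart.

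The pooled reads, 681 after PEL and 192 in controls, gave a ratio of 3.37 with an exact (Clopper-Pearson) 95% interval of 2.87 to 3.98, which covers counting error only. In the GRCr8 RefSeq table the end of Fgf2 overlaps Nudt6, a gene on the opposite strand, by 766 bases. The sources used here do not say whether reads were counted by strand, so reads from the overlap may belong to either gene, and their part in the Fgf2 counts was not tested. No gene listed there overlaps Vegfa, Tgfb1, Bdnf or Igf1.

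Vegfa (ENSRNOG00000019598) had 2826, 3888 and 3199 reads after PEL, against 2540, 2426 and 2828 reads in controls. Scaled, these are 176, 240 and 189 CPM after PEL, against 184, 151 and 167 CPM in controls. PEL replicate 2 stood above all other libraries, and PEL replicate 3 lay just above the highest control. PEL replicate 1 lay within the control range, so the groups overlapped. The mean was 202 ± 33.9 CPM after PEL and 167 ± 16.5 CPM in controls (SD, n = 3 each). The log2 fold change of 0.27 (SE 0.13) had an edgeR adjusted p = 0.255 and did not pass the test. Without PEL replicate 2 it was 0.12 (edgeR adjusted p = 0.501), so 1 library carries much of the value. The pooled ratio of 1.21 had a counting interval of 1.17 to 1.25, against 0.985 to 1.47 for the fitted fold, which includes the spread between libraries. Vegfa is spliced into forms of different reach in the tissue, and counts per gene do not separate them.

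**Figure D1:**
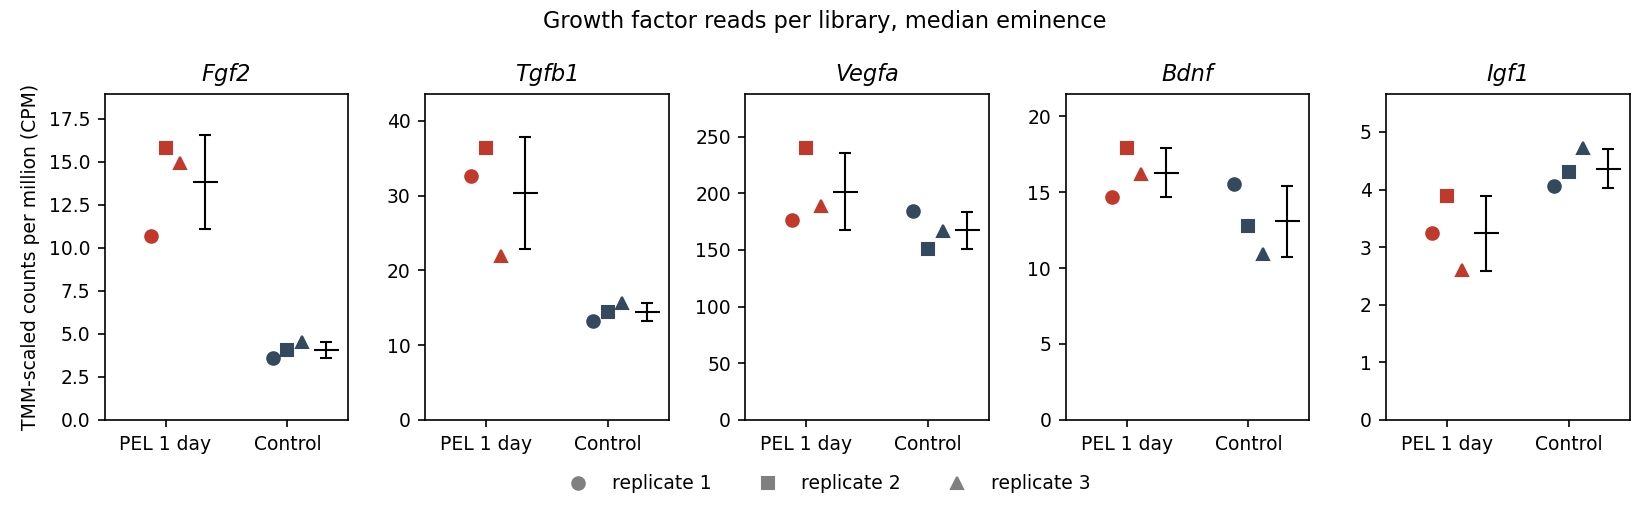
TMM-scaled CPM (vertical axes from 0) of the 5 growth factors in each library, with PEL left of control, symbols for the replicate number and a bar for the mean ± SD of 3 libraries. Fgf2 lies at 10.7 to 15.8 CPM after PEL and at 3.62 to 4.54 CPM in controls, and Tgfb1 at 21.9 to 36.4 CPM after PEL and at 13.3 to 15.7 CPM in controls, while the groups of Vegfa and Bdnf overlap.

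Tgfb1 (ENSRNOG00000020652), the factor tied to glial scar and matrix, also rose. It had 524, 589 and 372 reads after PEL, against 183, 231 and 266 reads in controls. In CPM the values were 32.6, 36.4 and 21.9 after PEL, against 13.3, 14.4 and 15.7 in controls. All PEL libraries were above all controls, and PEL replicate 3 was the closest to them. The mean was 30.3 ± 7.49 CPM after PEL and 14.5 ± 1.22 CPM in controls (SD, n = 3 each). Its log2 fold change was 1.07 with an SE of 0.19 (edgeR adjusted p = 0.0198), which is also the middle of the 760 rows called higher, whose median was 1.07. Among all tested rows, 3.73% had a value as high.

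The call of Tgfb1 was kept in 2 of the 6 fits that left out 1 library. Leaving out PEL replicate 1 gave a log2 fold change of 1.01 (edgeR adjusted p = 0.0839). Leaving out control replicate 1, 2 or 3 gave 1.01, 1.06 and 1.13 (edgeR adjusted p = 0.0991, 0.0950 and 0.0696). The call was kept without PEL replicate 2, at 0.91 (edgeR adjusted p = 0.0355), and without PEL replicate 3, at 1.25 (edgeR adjusted p = 0.00175). The share of all tested rows called moved in the same fits, to 1.51% without PEL replicate 1, to 1.03%, 1.06% and 1.31% without control replicates 1, 2 and 3, to 3.93% without PEL replicate 2 and to 12.1% without PEL replicate 3. Fgf2 was called in all 6 of these fits, with log2 fold changes of 1.65 to 1.91 and edgeR adjusted p of 0.00577 to 0.0327.

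**Figure D2:**
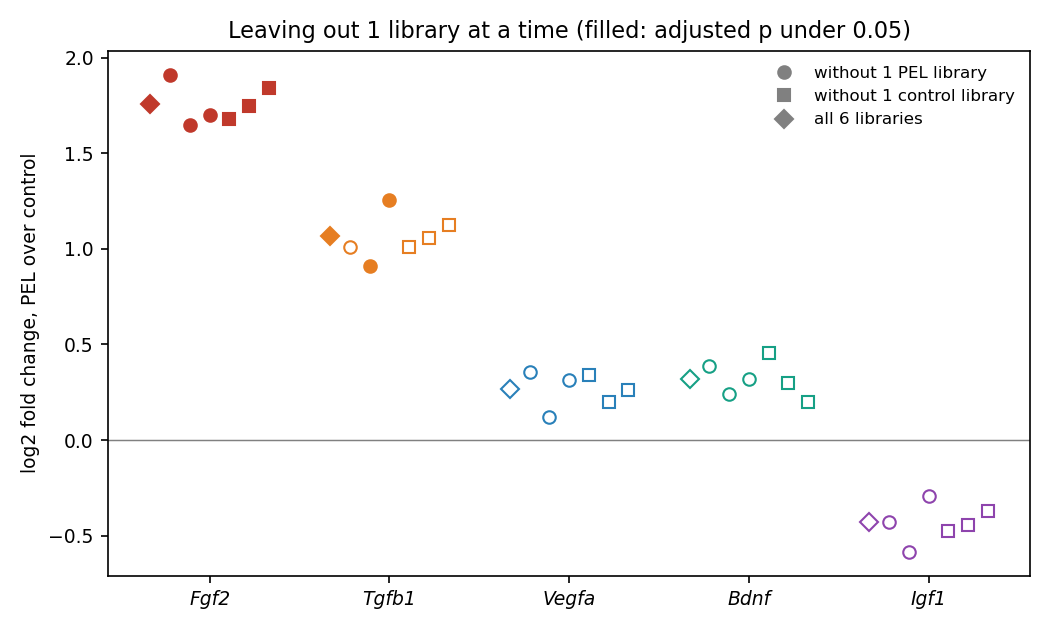
Log2 fold change of PEL over control (vertical axis) for each gene with all 6 libraries (diamonds) and with 1 PEL library (circles) or 1 control library (squares) left out, replicates 1 to 3 from left to right; filled symbols have an edgeR adjusted p under 0.05. Fgf2 stays between 1.65 and 1.91 and is filled throughout, Tgfb1 lies between 0.91 and 1.25 and is open in 4 of 6 fits, and Vegfa, Bdnf and Igf1 are open in every fit shown.

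Bdnf (ENSRNOG00000047466), which acts on neurons through the receptor TrkB, had 236, 290 and 275 reads after PEL, against 214, 205 and 185 reads in controls. In CPM these are 14.7, 17.9 and 16.2 after PEL, against 15.5, 12.8 and 10.9 in controls. PEL replicates 2 and 3 were above every control, but control replicate 1 was above PEL replicate 1, so the groups overlapped. The mean was 16.3 ± 1.60 CPM after PEL and 13.1 ± 2.31 CPM in controls (SD, n = 3 each). The log2 fold change of 0.32 (SE 0.16) had an edgeR adjusted p = 0.269 and did not pass the test. The pooled reads, 801 after PEL and 604 in controls, gave a ratio of 1.26 with a counting interval of 1.13 to 1.40. The log2 fold change ranged from 0.20 without control replicate 3 to 0.46 without control replicate 1.

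Igf1 (ENSRNOG00000004517), a survival factor for neurons and oligodendrocytes, was the only one of the 5 with a lower mean after PEL. It had 52, 63 and 44 reads after PEL, against 56, 69 and 80 reads in controls. Scaled, it was at 3.24, 3.89 and 2.59 CPM after PEL, against 4.06, 4.30 and 4.72 CPM in controls. All 3 PEL values lay under all 3 control values, by a narrow margin between PEL replicate 2 and control replicate 1. The mean was 3.24 ± 0.648 CPM after PEL and 4.36 ± 0.336 CPM in controls (SD, n = 3 each). The log2 fold change of -0.43 (SE 0.22) had an edgeR adjusted p = 0.288 and did not pass the test. With 44 to 80 reads, counting alone gives each library an error of 11.2% to 15.1%. The pooled ratio of 0.737 had a counting interval of 0.596 to 0.912, against 0.524 to 1.05 for the fitted fold, which includes the spread between libraries.

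**Figure D3:**
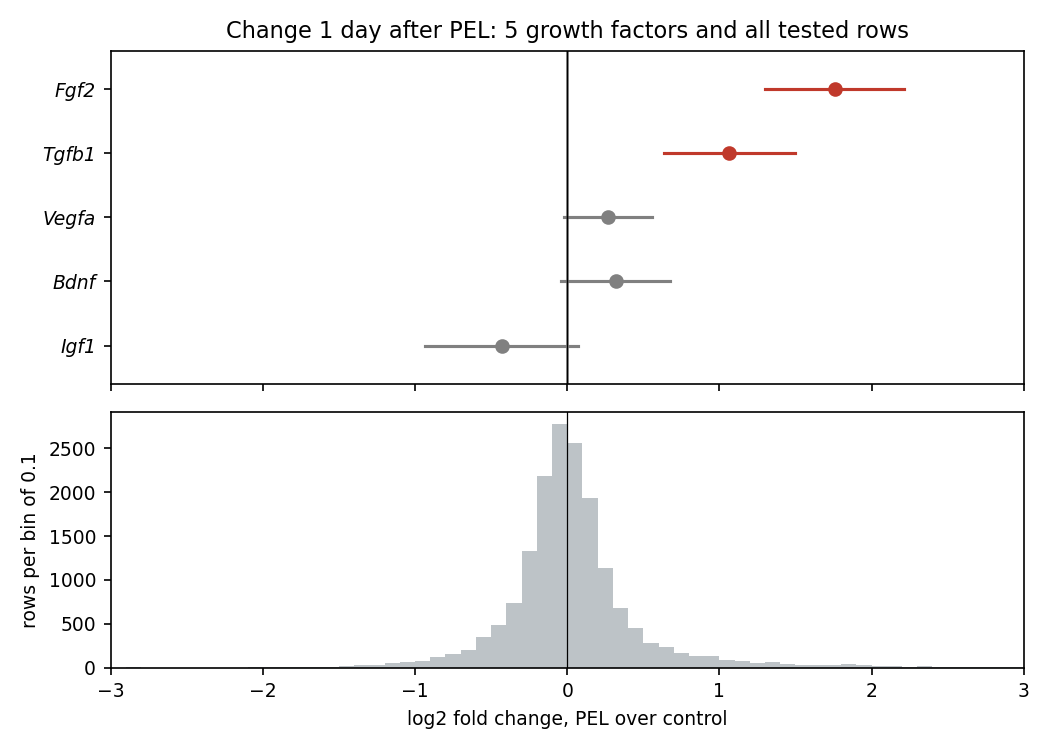
Upper panel: log2 fold change of PEL over control for each gene (point) with its 95% interval (line), red where the edgeR adjusted p is under 0.05 and grey where it is not. Lower panel: the number of rows in each bin of the same axis over the tested rows, without 54 rows beyond 3 in either direction; Fgf2 at 1.76 and Tgfb1 at 1.07 lie in its right tail, with 1.64% and 3.73% of rows as high.

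The 2 genes that rose did not order the PEL libraries in the same way. On the log2(CPM + 1) scale, Fgf2 lay above the control mean by 1.21 in PEL replicate 1, by 1.73 in replicate 2 and by 1.65 in replicate 3. Tgfb1 lay above it by 1.13, 1.28 and 0.57 in the same libraries. Tgfb1 thus followed the rows called higher as a whole, whose median difference was 0.93, 1.09 and 0.69, and Fgf2 did not, since its lowest PEL library was replicate 1 and not replicate 3. Of the 760 rows called higher, 79.5% were lowest of the PEL group in replicate 3 and 12.6% in replicate 1. All 5 genes were highest of the PEL group in replicate 2, as were 69.5% of the rows called higher. Vegfa and Bdnf, like Fgf2, were lowest of the PEL group in replicate 1, and Igf1, like Tgfb1, in replicate 3.

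**Figure D4:**
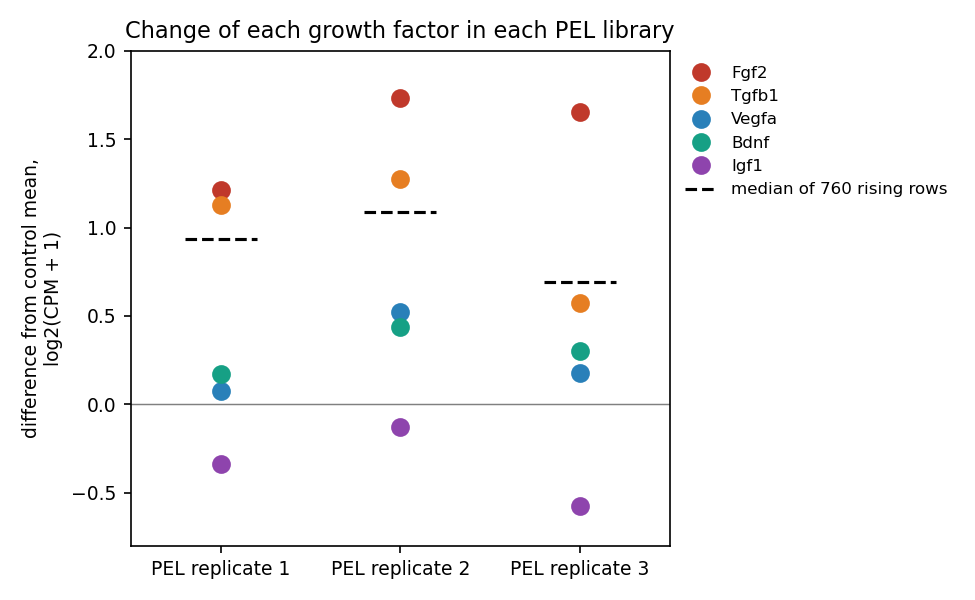
Difference from the control mean on the log2(CPM + 1) scale (vertical axis) of each growth factor in each of the 3 PEL libraries, with a dashed line at the median of the 760 rows called higher. Fgf2 is at 1.65 in PEL replicate 3 where the dashed line is at 0.69, and Tgfb1 is at 0.57 there.

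Spread between libraries was wider after PEL for 4 of the 5 genes. The coefficient of variation was 24.7% after PEL and 8.44% in controls for Tgfb1. It was 19.7% after PEL and 11.3% in controls for Fgf2, and 16.8% after PEL and 9.83% in controls for Vegfa. Igf1 had 20.0% after PEL and 7.70% in controls. For Bdnf it was 9.85% after PEL and 17.7% in controls. With 3 libraries in a group these values are a description. In controls the values of Igf1 and Fgf2 were under the error that counting alone gives each library. That error was 11.2% to 13.4% for Igf1 and 11.4% to 14.1% for Fgf2. The libraries as a whole also lay further apart after PEL. On the first principal component they ran from 4.65 to 44.1 after PEL and from -26.2 to -23.5 in controls. The share of all tested rows with a wider spread after PEL was not computed. Whether the wider spread is particular to these genes was therefore not tested.

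Whether the factors changed by different amounts was examined through the log2 ratio of 2 genes within each library, for all 10 pairs. In 8 pairs the ratios of the PEL libraries did not overlap those of the controls. Each of these pairs holds Fgf2, Tgfb1 or Igf1, whose own groups do not overlap, and the share over pairs of other rows was not computed, so the count is a description. The exact two-sided permutation test over the 6 libraries gave p = 0.1 in each of these 8, the smallest p that 3 against 3 allows, and 0.125 after adjustment over the 10 pairs, so none can pass. The ratio of Fgf2 to Tgfb1 had a mean log2 of -1.07 after PEL and -1.61 in controls, a difference of 0.54 with an SD between libraries of 0.36, and it was 0.27 without PEL replicate 3 and 0.77 without PEL replicate 1. The ratio of Igf1 to Fgf2 moved most, at -1.80 after PEL and 0.08 in controls, a difference of -1.88 (SD 0.24). The ratio of Vegfa to Bdnf moved least, at 3.54 after PEL and 3.59 in controls, a difference of -0.05 (SD 0.16, exact permutation p = 0.8). In order of log2 fold change the genes ran Fgf2, Tgfb1, Bdnf, Vegfa and Igf1, and the neighbours Tgfb1 and Bdnf, and Bdnf and Vegfa, had ratios that overlapped between the groups, while the ratios of Fgf2 to Tgfb1 and of Vegfa to Igf1 did not.

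The rows most like the 2 genes that rose were found by the root-mean-square difference of log2(CPM + 1) profiles over the 6 libraries, each set to its control mean, among tested Ensembl rows with a mean of at least 5 CPM. For Tgfb1 the nearest row was ENSRNOG00000015278, at a difference of 0.0573, with 94.7, 120 and 68.2 CPM after PEL, against 42.5, 47.0 and 50.5 CPM in controls. For Fgf2 the nearest was ENSRNOG00000019689, at 0.148, with 69.6, 99.9 and 74.4 CPM after PEL, against 27.9, 26.2 and 33.1 CPM in controls. The table gives these rows no symbol. Fgf2 had no neighbour as close as that of Tgfb1. It also had fewer reads in controls, 50 to 77 against 183 to 266 for Tgfb1. Fewer rows moved as far, 1.64% of tested rows against 3.73% for Tgfb1. The part of either in the distance was not tested. Fgf2 and Tgfb1 differed from each other by 0.480, and 300 of the other 17123 tested rows were nearer to Fgf2 than Tgfb1 was.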

How the data were processed

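RNA from the rat median eminence was sequenced in 6 samples, 3 after PEL and 3 controls, grouped by their titles. The authors deposited raw read counts per gene, whole numbers with no normalization. HISAT2 2.0.5, featureCounts 1.5.0-p3 and DESeq2 1.16.1 are named, per the submitters' processing notes. Nothing used here states the genome build, annotation, strand setting or read filters. The table has 34510 rows, 32883 with an Ensembl identifier and 1627 with a numbered placeholder. 0 of 34510 identifiers matched the RefSeq table (GRCr8), so the symbols of the 5 genes are those given with the identifiers that chose them, and planned lists of receptors, targets and cell type markers were not run.

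All rows were fitted together in edgeR 4.0.16 (R 4.3.3) with filterByExpr (minimum count 10), TMM scaling and the quasi-likelihood F test, two-sided, with Benjamini-Hochberg adjustment over 17125 rows and a threshold of 0.05. Standard errors were taken from the F statistic, as |log2 fold change|/√F, and 95% intervals from the t distribution with its degrees of freedom. Ratios and profiles use log2(CPM + 1), on which low genes appear to change less. The fit was tested on simulated data. Alternatives were other scalings and filters, DESeq2 1.42.0, limma-voom (limma 3.58.1), the replicate number as a block, no placeholder rows and each sample left out. Motifs were searched on both strands. Figures used matplotlib 3.10.9. The 5 genes, the lists, the motifs and the tests were chosen with earlier results of these data known. The genes named were the 5 and, for each called one, the nearest row by profile.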

Additional observations from a re-analysis of the deposited data

How the results depend on the processing

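No gene of the 5 changed direction under any alternative run, which for Fgf2, Tgfb1 and Igf1 is no sign of stability, since their groups do not overlap. Fgf2 was called in all 15, with log2 fold changes of 1.65 to 1.91 and adjusted p from 7.2e-11 (DESeq2) to 0.0327. Tgfb1 was called in 11 of 15. It stayed between 0.91 and 1.25 when 1 library was left out, and the number of the 5 genes called, all higher, was then 1 to 2. Each of these fits had fewer libraries, and the cause of the lost calls was not tested. Vegfa, Bdnf and Igf1 were called in 0 of their 15, 15 and 14 alternatives, at 0.12 to 0.36, 0.20 to 0.46 and -0.58 to -0.29 on the log2 scale. Igf1 was not tested under the stricter filter of 5 CPM in 3 samples. Under a replicate block, Fgf2 was at 1.75 (edgeR adjusted p = 0.0104) and Tgfb1 at 1.04 (edgeR adjusted p = 0.0430). The block changed no call of the 5, and same-numbered libraries did not deviate together (r = 0.004, -0.08 and -0.05). Over all rows, 930 were called as reported, 547 with the block, 651 with limma-voom, 1648 with DESeq2 and 179 to 2107 with 1 library left out. The ratio differences of the 10 pairs moved by less than the SD between libraries in each of 8 alternatives, though that of Fgf2 over Tgfb1 ranged from 0.27 to 0.77. A mean of at least 1 CPM gave the same nearest rows for Fgf2 and Tgfb1. Counts over lists of pathway genes and markers were not run, since rows have no symbols. Counts were lowest for Igf1, at 44 to 80 reads a library, and for Fgf2 in controls, at 50 to 77 reads.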
